A study of Homo sapiens with 9 samples.

Results

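Gene expression in the 3 libraries titled TLX1 siRNA1 was compared with that in the 3 libraries titled NTC siRNA, which are 6 of the 9 libraries of a polyA+ RNA-seq study of ALL-SIL cells. ALL-SIL is an established human line of T-cell acute lymphoblastic leukaemia, abbreviated T-ALL, in which the oncogene TLX1 is active. Libraries were chosen by title alone, and each one was paired with the library of the other group that carries the same replicate number, 1 to 3. All groups are this 1 line, grown in RPMI with fetal bovine serum, and all received a small interfering RNA by electroporation. Such siRNAs are short double-stranded RNAs that guide the cleavage of mRNAs they pair with. The groups differ in the siRNA that the title names: TLX1 siRNA1, NTC or, in the remaining 3 libraries, TLX1 siRNA2. The meaning of NTC, the siRNA sequences, their dose and the harvest time are not given in the sources. Nor is it stated there whether replicates were separate cultures, and p-values therefore reflect only the spread between these libraries, which may be technical.

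TLX1 is a homeobox transcription factor that is needed for spleen development and is silent in normal T cells. Chromosomal rearrangements switch it on in a subset of T-ALL whose cells resemble cortical thymocytes. At that stage a thymocyte cuts its T cell receptor genes with the RAG1 and RAG2 recombinase, the polymerase DNTT adds bases at the joins, NOTCH1 signalling supports growth, and CD1 molecules mark the cell surface.

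TLX1, the gene named as the target, was higher and not lower in the libraries labelled siRNA1. Its level, in CPM, read counts brought to a common library size with normalization factors, was 184, 167 and 183 in NTC replicates 1 to 3 and 406, 457 and 387 in siRNA1 replicates 1 to 3. The groups did not overlap, and each siRNA1 library was above the NTC library of its number by 1.14, 1.45 and 1.08 on the log2 scale. The mean level was 178 ± 9.41 (SD, n = 3) under the NTC label and 417 ± 36.5 (SD, n = 3) under the siRNA1 label, a 2.33-fold difference (log2 fold change 1.22, SE 0.08, adjusted p = 2.05e-10 by the quasi-likelihood test of edgeR). The libraries labelled siRNA2 held 203 ± 26.1 CPM (SD, n = 3). TLX1 therefore goes against the label siRNA1, and every direction below is a difference between labelled libraries, with no statement on how much TLX1 RNA was removed from cells. Whether labels were exchanged between groups was not tested, and if they were, each "rose" and "fell" would belong to other groups than the ones named.

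The TLX1 gene, ENSG00000107807.12, spans chr10:101130505-101137789 of GRCh38 on the plus strand. Its start overlaps the antisense gene TLX1NB, and the libraries do not mark strand, but TLX1NB had 0 counts in all 9 libraries. Reads marked ambiguous between genes were in neither count. Of the paralogues, TLX2 had between 0 and 5 counts in a library. TLX3 had 33, 54 and 41 counts in replicate 1 of NTC, siRNA1 and siRNA2, and 0 counts in the other 6 libraries, which allows up to 3 counts in each.

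Each library held between 58305492 and 99524663 gene counts, which leaves little counting error above a few CPM, although reads amplified by PCR and not marked by molecular identifiers can stem from 1 molecule. The replicate 1 libraries of the 3 groups stood apart along the first principal component (31.8% of the variance), the second (19.6%) separated replicate 2 from replicate 3, and the third (16.1%) separated the siRNA1 libraries from the other 6. The replicate number was a block in the test because libraries were paired by that number from the start. Counts are also given without the block and without the replicate 1 libraries. Markers of the T lineage were at 1 CPM or more for 15 of 15 genes, with a summed level of 3887 to 3957 CPM in NTC and 3627 to 3834 CPM in siRNA1 libraries. Short sets of 9 myeloid, 6 NK, 7 erythroid and megakaryocyte and 8 epithelial and fibroblast markers were used. Each set summed to 1.03 CPM or less in every one of these 6 libraries. NCAM1, NCR1, PF4, PPBP, HBA1, KRT18, DCN and KRT19 were at 0 in all 9. The 7 B cell markers summed to 25.8 to 32.6 CPM in NTC and 22.9 to 27.7 CPM in siRNA1 libraries. The longer marker lists counted below hold further genes that were expressed here. Of these lists, the 2 epithelial and fibroblast genes tested had a median of 132 CPM and the 4 erythroid and megakaryocyte genes 4.92 CPM. MZB1, counted there as a B cell marker, had a mean of 199 CPM under NTC. In bulk RNA, fewer cells of a kind and less RNA per cell cannot be told apart.

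**Figure D1:**
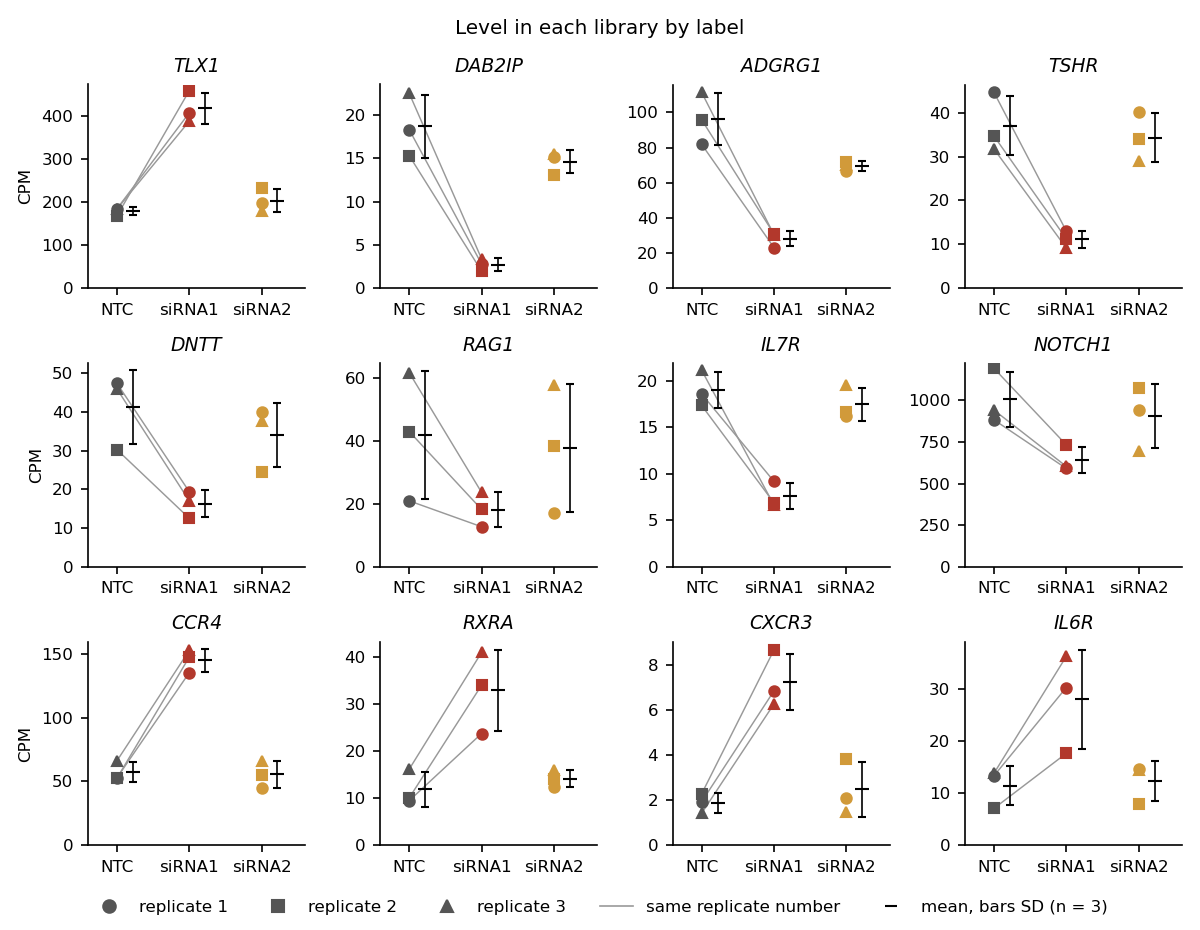
Level in CPM (vertical axes, linear from 0) of 12 genes in each library by label, with the replicate number given by the symbol, lines between NTC and siRNA1 libraries of the same number, and bars for the mean and SD of 3 libraries. TLX1 runs from 167 to 184 CPM under the NTC label and from 387 to 457 CPM under the siRNA1 label, and RAG1 differs more between replicate numbers than the other genes while falling in each pair.

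Of 18554 genes tested, 2117 (11.4%) differed between the siRNA1 and NTC labels at an adjusted p under 0.05 (edgeR quasi-likelihood test with the replicate block). Of these, 1016 (5.48%) were higher and 1101 (5.93%) lower under the siRNA1 label. Most differences were small: 744 of the higher and 849 of the lower genes differed by less than 1.5-fold, while 82 higher genes (0.442% of those tested) and 64 lower genes (0.345%) differed by more than 2-fold. In 1369 of the 2117 genes (64.7%) the siRNA1 and NTC libraries did not overlap, against 2939 of all genes (15.8%), and 2106 (99.5%) had the same direction in the 3 pairs. Of 12409 protein-coding genes 945 were lower (7.62%) and 788 higher (6.35%), and of 3635 long noncoding RNA (lncRNA) genes 93 were lower (2.56%) and 163 higher (4.48%). Without the block the count was 238 genes (1.28%), 87 higher (0.469%) and 151 lower (0.814%). It was 1139 without the 3 replicate 1 libraries, 558 higher and 581 lower. Leaving out a single library gave between 1163 genes, without siRNA1 replicate 1, and 2979, without siRNA2 replicate 3, and it also fell more than 1.5 times without NTC replicate 1 (1410) or siRNA1 replicate 3 (1326).

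**Figure D2:**
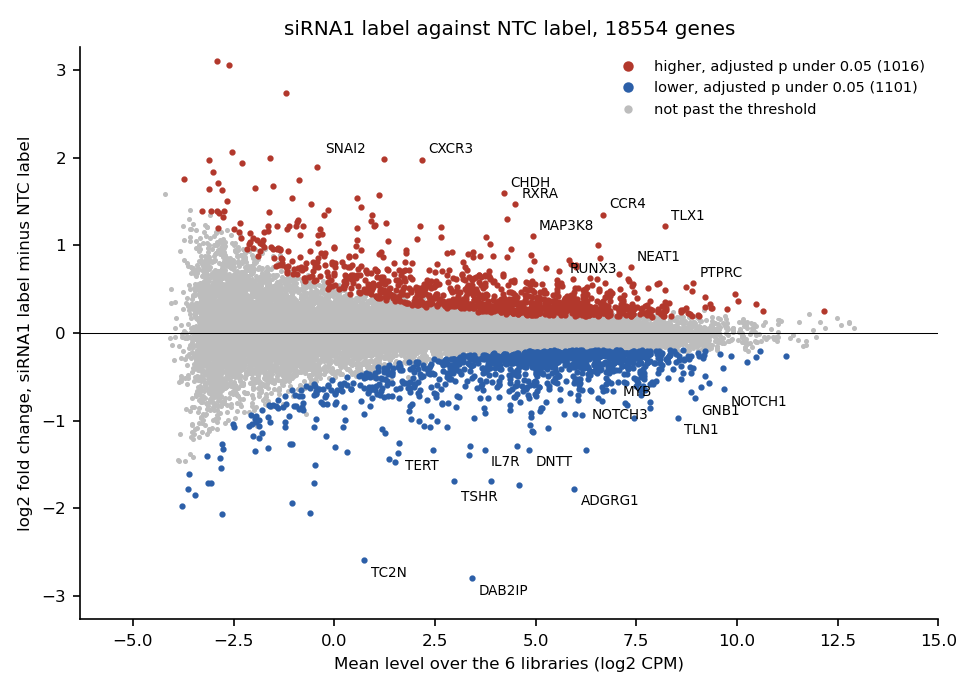
The log2 fold change between labels (vertical axis) against the mean level over the 6 libraries (horizontal axis, log2 CPM) of 18554 genes, with the 1016 higher and 1101 lower genes coloured. DAB2IP and TC2N lie lowest among the labelled genes at -2.80 and -2.59, and TLX1 stands among the higher genes at 1.22.

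The same siRNA1 libraries were also compared with those labelled siRNA2. That comparison shares its siRNA1 libraries with the one above, so it is set beside it and is no separate support. It called 1958 genes (10.6%), 981 higher (5.29%) and 977 lower (5.27%) under the siRNA1 label (edgeR). TLX1 was 1.04 higher (log2, SE 0.08) than under the siRNA2 label. Between the siRNA2 and NTC labels 28 genes passed (0.151%), 16 higher (0.0862%) and 12 lower (0.0647%), and TLX1, at a log2 difference of 0.18, was not among them (edgeR adjusted p = 0.5).

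Protein-coding genes were ranked if their mean was at least 1 CPM, they also passed without the block and the 3 pairs had the same direction. Among them, genes lower under the siRNA1 label were led by DAB2IP, a GTPase-activating protein that switches off Ras. DAB2IP, at chr9:121567057-121785530, stood at 18.3, 15.3 and 22.5 CPM in NTC replicates 1 to 3 and at 2.77, 1.95 and 3.38 CPM in siRNA1 replicates 1 to 3. Every siRNA1 library was far below every NTC library, a 6.95-fold lower level (log2 fold change -2.80, SE 0.10, edgeR adjusted p = 1.56e-14). TC2N, a C2-domain protein named for its tandem C2 domains, fell from 2.88 to 0.482 CPM on average (log2 fold change -2.59, SE 0.19). ADGRG1, an adhesion G protein-coupled receptor, stood at 81.9, 95.9 and 111 CPM under NTC and 23.1, 30.9 and 30.4 CPM under siRNA1, with no overlap. TSHR, the thyrotropin receptor, which signals through cAMP, stood at 44.7, 34.7 and 31.7 CPM under NTC and 13, 11.3 and 9.13 CPM under siRNA1. Both receptors were thus more than 3-fold lower (3.43-fold for ADGRG1 and 3.32-fold for TSHR), and within each replicate number the siRNA1 library was the lower one. TERT, the catalytic subunit of telomerase, fell from a mean of 4.35 to 1.69 CPM (log2 fold change -1.37, SE 0.14). The other genes at this end, beside DNTT and IL7R, which are described below, were IGLL1 (-1.69), a surrogate light chain component of pre-B cells, the receptor phosphatase PTPRU (-1.68), DIP2C (-1.48), the kinase WNK2 (-1.43) and CSGALNACT1 (-1.29), which initiates chondroitin sulphate chains. These fold changes all passed the threshold without the block as well, by the rule that chose them, and in each of 9 fits that left out a single library.

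Protein-coding genes higher under the siRNA1 label were ranked by the same rule, with a mean of at least 1 CPM and a pass without the block. IL6R, described below, did not pass without the block and so was not ranked. The largest rise was that of SNAI2, a zinc-finger repressor, at 0.977, 1.03 and 0.838 CPM under NTC and 3.62, 4.42 and 3.16 CPM under siRNA1. CXCR3, a chemokine receptor of effector T cells, stood at 1.92, 2.27 and 1.41 CPM under NTC and 6.84, 8.66 and 6.26 CPM under siRNA1. Both were about as much higher (3.96-fold and 3.95-fold), with no overlap between labels. RXRA, the common partner of the retinoic acid receptors, stood at 9.5, 10.1 and 16.2 CPM under NTC and 23.8, 34.1 and 41.1 CPM under siRNA1 (log2 fold change 1.47, SE 0.09, edgeR adjusted p = 2.38e-10). CCR4, a chemokine receptor of skin-homing and Th2 cells, stood at 52.9, 52.5 and 66.2 CPM under NTC and 135, 148 and 153 CPM under siRNA1 (log2 fold change 1.35, SE 0.07, edgeR adjusted p = 2.31e-11). For RXRA and CCR4 too, the lowest siRNA1 library lay above the highest NTC library. Also higher were CHDH (1.60), a mitochondrial choline dehydrogenase, the activating receptor NCR2 (1.58), HLA-DMB (1.44), which helps load peptides on MHC class II, the GTPase GBP2 (1.35), GOLGA7B (1.26), the proton-sensing receptor GPR65 (1.23) and the kinase MAP3K8 (1.11). The 12 genes at this end, TLX1 among them, passed in all 19 alternative analyses. One of these, the fit without the block, was passed by the rule that chose the genes.

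By CPM, which is not a level per length, the 5 genes with the highest mean among those more than 1.5-fold lower were TLN1 (-0.97), the integrin-linking protein talin, the G protein subunit GNB1 (-0.74), the nucleoside transporter SLC29A1 (-0.67), NOTCH1 (-0.64) and the E2F partner TFDP2 (-0.62). TLN1 stood at 439, 516 and 513 CPM under NTC and 236, 228 and 288 CPM under siRNA1. GNB1 was the most even of them, at 604, 652 and 603 CPM under NTC and 373, 375 and 364 CPM under siRNA1, and neither gene overlapped between labels. Among those more than 1.5-fold higher the 5 were TLX1, the nuclear lncRNA NEAT1 (0.75), PTP4A3 (0.67), RUNX3 (0.61) and TMC6 (0.60). NEAT1 stood at 101, 125 and 130 CPM under NTC and 196, 140 and 294 CPM under siRNA1, so the replicate 2 pair differed by 0.16 on the log2 scale and the other pairs by 0.96 and 1.17. NEAT1 and PTP4A3 did not pass without the block (edgeR adjusted p = 0.18 and 0.359), and neither did NOTCH1 (0.0862).

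Over all genes tested, 5.93% were lower and 5.48% higher. These are the shares to set beside every list count from all 9 libraries with the block. Over protein-coding genes alone they were 7.62% lower and 6.35% higher. Counts from other fits go with other shares. Without the block 0.814% of all genes were lower and 0.469% higher, so a list would hold few members or none at these shares. Without the 3 replicate 1 libraries 581 genes were lower and 558 higher, against 1101 and 1016 with all libraries. Among the genes of V(D)J recombination, 5 of 13 were lower and none higher, with a median log2 fold change of -0.16 against 0.00 over all genes. The count was also 5 without the replicate 1 libraries. The members that fell were the recombinase pair, DNTT, ARPP21 and the end-joining ligase LIG4, while XRCC5, XRCC6 and PRKDC, which hold broken ends together, did not pass the test. DNTT stood at 47.4, 30.3 and 46 CPM under NTC and 19.4, 12.5 and 17 CPM under siRNA1, a 2.52-fold lower level with no overlap (edgeR adjusted p = 8.85e-12). RAG2 stood at 9, 12.8 and 22.5 CPM under NTC and 3.55, 6.19 and 8.16 CPM under siRNA1 (log2 fold change -1.29, SE 0.09, edgeR adjusted p = 2.86e-09). RAG1 stood at 20.9, 42.9 and 61.6 CPM under NTC and 12.7, 18.2 and 23.6 CPM under siRNA1 (log2 fold change -1.12, SE 0.11, edgeR adjusted p = 1.3e-07). Replicate 1 was lowest and replicate 3 highest under both labels for RAG1 and RAG2, and each siRNA1 library lay below its pair, by 0.72, 1.24 and 1.39 for RAG1. Because replicate 3 under siRNA1 exceeded replicate 1 under NTC, the labels overlapped for RAG1, and without the block neither RAG1 (edgeR adjusted p = 0.302) nor RAG2 (0.221) passed. RAG1 (chr11:36510709-36593156, plus strand) and RAG2 (chr11:36575574-36598279, minus strand) overlap in the annotation, and reads from the shared stretch cannot be assigned by strand. Reads marked ambiguous between genes were in neither count. ARPP21, an RNA-binding protein gene that is listed with them for its thymocyte expression, fell by 0.88 and LIG4 by 0.57 on the log2 scale. In the siRNA2 libraries DNTT stood at 39.9, 24.5 and 37.6 CPM and RAG1 at 16.9, 38.4 and 57.8 CPM, each below the NTC library of its number and above the siRNA1 library of its number.

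Of 23 markers of thymocyte stages, 10 were lower and 3 higher (median log2 fold change -0.13), against 5.93% and 5.48% of all genes. CD1A, the surface marker of cortical thymocytes, stood at 81.1, 42.7 and 91.7 CPM under NTC and 46.4, 31 and 54.2 CPM under siRNA1. Its labels overlapped because replicate 2 was low under both, and the siRNA1 library was the lower one in each pair (log2 fold change -0.68, SE 0.07, edgeR adjusted p = 6.97e-07). The 5 CD1 genes all fell: CD1D by 0.61, CD1C by 0.53, CD1B by 0.44 and CD1E by 0.35 beside CD1A. CD1D, the molecule that presents lipids to NKT cells, was the one of the 5 whose labels did not overlap. The coreceptor CD4 fell by 0.40, the ectoenzyme CD38 by 0.53 and the water channel AQP3 by 0.72, while CD7 (0.53), CD8B (0.44) and CCR9 (0.40) rose. None of the 23 passed without the block, where 1.28% of all genes did and the edgeR adjusted p was 0.391 for CD1A. Without the replicate 1 libraries 7 were lower and 1 higher. Without siRNA1 replicate 1 alone, 9 were lower and 1 higher. Of the genes named outside the rule, CD1B, CD1C, CD1E, CD4, CD7, CD8B and CCR9 were picked after their values were seen, and so was CD8A, the other CD8 chain, at a log2 fold change of 0.16 that did not pass (edgeR adjusted p = 0.112).

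Within the NOTCH1 pathway, 7 of 19 genes were lower and 2 higher (median -0.05), against 5.93% and 5.48% of all genes. NOTCH1 itself stood at 884, 1193 and 942 CPM under NTC and 591, 733 and 603 CPM under siRNA1, with no overlap (log2 fold change -0.64, SE 0.08, edgeR adjusted p = 4.48e-06). NOTCH3, a receptor that is also a NOTCH1 target in thymocytes, stood at 251, 312 and 315 CPM under NTC and 156, 174 and 176 CPM under siRNA1 (log2 fold change -0.79, SE 0.07, edgeR adjusted p = 7.57e-08). Both receptors were lower in every pair, with differences within a pair of -0.58 to -0.70 for NOTCH1 and -0.69 to -0.84 for NOTCH3. IL7R, the receptor subunit for the thymic survival cytokine IL-7, stood at 18.6, 17.3 and 21.1 CPM under NTC and 9.17, 6.87 and 6.62 CPM under siRNA1. That is a 2.52-fold lower level (edgeR adjusted p = 7.02e-09). SHQ1, a factor for ribonucleoprotein assembly, fell by 0.54, and MYC (-0.37), TRIB2 (-0.27) and DTX1 (-0.24) changed less. LFNG, which adds sugars to NOTCH receptors, rose (0.86), as did NOTCH2 (0.27). HES1, a direct target of NOTCH signalling in many tissues, had a log2 fold change of 0.02 (SE 0.07, edgeR adjusted p = 0.904). IL7R and NOTCH3 among the lower genes and LFNG among the higher ones passed without the block. Leaving out the 3 replicate 1 libraries left 4 lower genes and 1 higher, and the count of higher genes was also 1 without NTC replicate 1, siRNA1 replicate 1 or siRNA1 replicate 3.

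**Figure D3:**
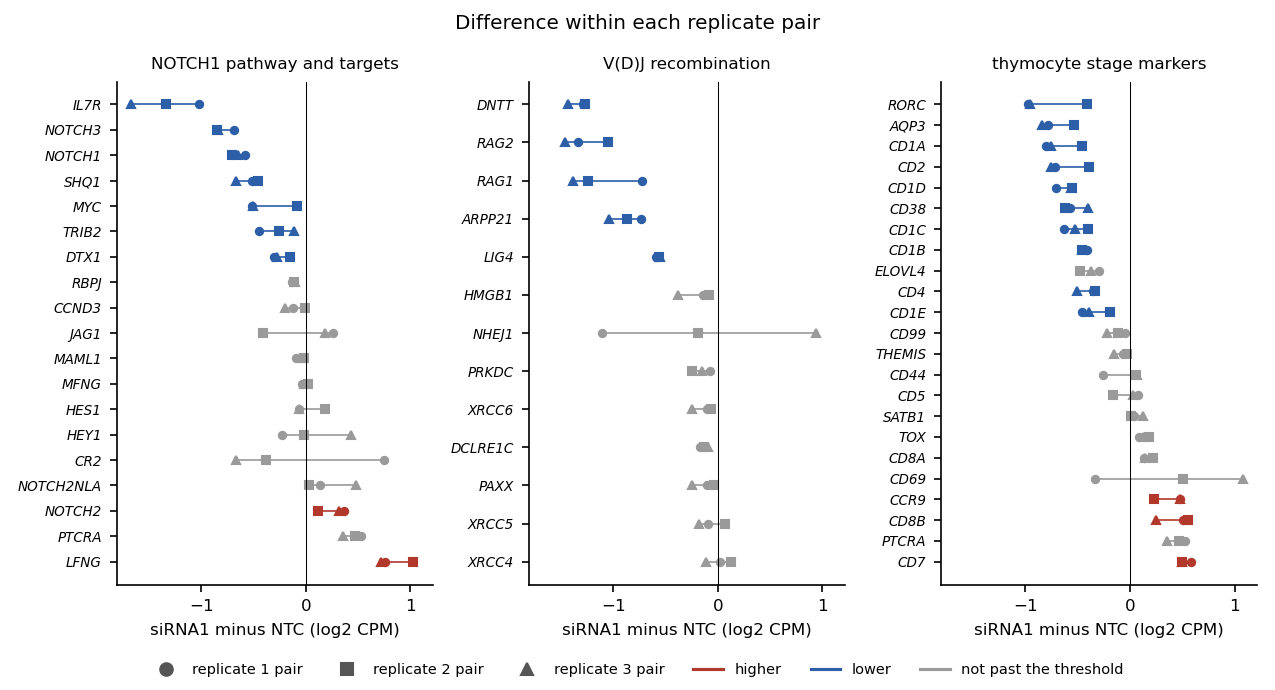
Difference within each replicate pair (horizontal axis, log2 CPM of siRNA1 minus NTC) for the tested members of 3 gene lists, with a symbol per pair and colours for members that passed the test. The 5 V(D)J members that fell lie left of 0 in the 3 pairs, DNTT between -1.27 and -1.43, and so do the 5 CD1 genes.

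Transcription factors of T cells moved both ways, with 9 of 39 lower and 5 higher. MYB, a factor that early T cells need, stood at 502, 444 and 449 CPM under NTC and 316, 332 and 320 CPM under siRNA1 (log2 fold change -0.53, SE 0.07, edgeR adjusted p = 5.64e-06). BACH2, a repressor of effector differentiation, fell by 0.64, BCL11B, which fixes the T lineage, by 0.38 and RUNX2 by 1.02 on the log2 scale. RUNX2 was low, at a mean of 0.574 CPM under NTC and 0.287 CPM under siRNA1. It did not pass without the block (edgeR adjusted p = 0.251). RUNX3, a factor of CD8 and innate lymphocytes, stood at 122, 137 and 115 CPM under NTC and 191, 198 and 182 CPM under siRNA1 (log2 fold change 0.61, SE 0.07, edgeR adjusted p = 2.54e-06). ID3, an inhibitor of E proteins, rose by 0.50 on the log2 scale. The libraries of the 2 labels did not overlap for MYB, BACH2, BCL11B, RUNX2 or RUNX3. RUNX3, BACH2 and MYB passed without the block, and 5 lower and 4 higher factors passed without the replicate 1 libraries.

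Of 39 genes of the T cell receptor and its proximal kinases and adaptors, 11 were higher and 4 lower, with a median of 0.01. The shares over all genes were 5.48% higher and 5.93% lower. PRKCQ, the kinase that links the receptor to NF-kappa-B, stood at 53.9, 39.6 and 48.9 CPM under NTC and 76.9, 83.5 and 82.6 CPM under siRNA1 (log2 fold change 0.78, SE 0.08, edgeR adjusted p = 1.07e-06). PTPRC, the phosphatase CD45, rose by 0.57, and the receptor subunit CD3G fell by 0.44, both with no overlap. The adaptor SH2D1A fell by 0.32. PRKCQ, PTPRC and CD3G passed without the block. Without siRNA1 replicate 1 the list held 5 higher and 2 lower genes, and without the 3 replicate 1 libraries 4 and 1.

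Cytokine receptors and JAK-STAT genes had 6 of 33 members higher and 3 lower. IL6R, the IL-6 receptor, stood at 13.3, 7.05 and 13.8 CPM under NTC and 30.2, 17.6 and 36.2 CPM under siRNA1 (log2 fold change 1.30, SE 0.08, edgeR adjusted p = 8.59e-11). Its replicate 2 libraries were low under both labels and the siRNA1 library was higher in each pair, by 1.18, 1.32 and 1.39, but without the block it did not pass (edgeR adjusted p = 0.0779). IL9R rose from 40.7, 42.4 and 39.6 CPM to 77.8, 71.6 and 70.2 CPM, and IL2RB, the shared IL-2 and IL-15 receptor chain, from 38.4, 35.6 and 35.4 CPM to 63.5, 59.3 and 56.2 CPM. Receptors of this list thus moved apart, with IL6R, IL9R and IL2RB higher and IL7R lower under the same label. The count without the replicate 1 libraries was 6 higher and 2 lower.

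Chemokine and egress receptors showed 8 of 25 members higher and 5 lower (median 0.16), and 7 and 2 without the replicate 1 libraries. Beside CCR4, CXCR3 and GPR65, the listed receptor CCR8 moved the other way, from 35.5, 43.7 and 38.1 CPM to 16.7, 24.7 and 19.3 CPM (log2 fold change -0.96, SE 0.07, edgeR adjusted p = 3.15e-09). Without siRNA1 replicate 3, 6 were higher and 2 lower, and without NTC replicate 1, NTC replicate 3, siRNA1 replicate 1 or siRNA1 replicate 2 the lower ones were 3. Among integrins and adhesion genes, 5 of 26 were lower and 4 higher. ITGA6, a laminin receptor subunit, fell by 0.74, while ITGB7, a subunit of gut-homing integrins, rose by 0.94 on the log2 scale.

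Genes of cytotoxic and NK cells had 6 of 14 members higher and none lower (median 0.37), and 5 were higher without the replicate 1 libraries. NKG7, a granule membrane protein, stood at 200.1, 227 and 205 CPM under NTC and 306, 334 and 292 CPM under siRNA1 (log2 fold change 0.56, SE 0.07, edgeR adjusted p = 3.7e-06). NCR2 was named above, and the protease gene CTSW rose by 0.61 and the receptor gene NCR3 by 0.60. Without siRNA1 replicate 3 NCR3 did not pass and 4 genes of the list were higher. The defining NK markers NCAM1 and NCR1 were at 0 in all libraries, and the 6 NK markers summed to 0.0703 to 0.0945 CPM in NTC and 0.0872 to 0.212 CPM in siRNA1 libraries. Without the block NCR2 and NKG7 passed.

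NF-kappa-B and immediate-early genes had 11 of 41 members higher and 4 lower (median 0.07), against 5.48% and 5.93% of all genes. Without the replicate 1 libraries the counts were 9 and 2. MAP3K8, a kinase upstream of ERK and NF-kappa-B, stood at 18.1, 18.6 and 21.1 CPM under NTC and 45.6, 36.7 and 42.8 CPM under siRNA1. KLF10 rose by 0.56, the adaptor TRAF1 by 0.62 and the subunit gene NFKB1 by 0.35 on the log2 scale. TNFAIP3, a feedback inhibitor of the pathway, fell by 0.27 and LTB by 0.31 (both chosen after their values were seen). MAP3K8 and KLF10 passed without the block. Without NTC replicate 2, 7 were higher, without siRNA1 replicate 1 or replicate 3 also 7, and without siRNA1 replicate 2, 6. The lower members were 1 without NTC replicate 3 or siRNA1 replicate 1 and 2 without NTC replicate 1.

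Interferon-stimulated genes had 14 of 44 members higher and 4 lower (median 0.13), against 5.48% and 5.93% of all genes. GBP2 led them, from 0.977, 1.09 and 1.17 CPM to 2.16, 2.61 and 3.55 CPM. RSAD2, an antiviral enzyme, stood at 14.7, 11.7 and 15.6 CPM under NTC and 24.4, 18.4 and 24.1 CPM under siRNA1, with no overlap (log2 fold change 0.67, SE 0.07, edgeR adjusted p = 1.17e-06). IFITM1 rose by 0.48 and GBP1 by 0.44 on the log2 scale. Without the block GBP2 alone of the list passed, and 1.28% of all genes did. Without the replicate 1 libraries 9 were higher and none lower, and 9 were also higher without NTC replicate 1, siRNA1 replicate 1 or siRNA1 replicate 3. The lower members were between 0 and 2 when any 1 of the 6 libraries compared was left out.

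The retinoid and lymphoid nuclear receptors had 4 of 23 members higher and 3 lower. The retinoic acid receptors RARG (0.55) and RARA (0.43) rose with their partner RXRA. RORA, an orphan receptor of lymphoid cells, fell from 25, 26.3 and 30.8 CPM to 13.2, 15.3 and 21.6 CPM (log2 fold change -0.73, SE 0.09, edgeR adjusted p = 4.39e-06). RXRA and RARG passed without the block, and 1 member was lower without NTC replicate 1 or siRNA1 replicate 1. Among Ras and MAPK regulators, 4 of 30 were higher and 3 lower: beside DAB2IP, the exchange factor RASGRP2 fell by 0.78 and the inhibitor SPRED2 by 0.60, and the GTPase-activating protein RASAL3 rose by 0.51 on the log2 scale. In cAMP signalling, 3 of 26 rose and 3 fell, led by TSHR among the lower genes and the phosphodiesterase PDE4D (0.79) among the higher ones. Without siRNA1 replicate 2 the higher Ras and MAPK regulators were 2. Without siRNA1 replicate 3 the lower cAMP genes were 1, and without siRNA2 replicate 3 they were 5.

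Nucleolar and polyamine genes had 8 of 35 members lower and none higher, against 5.93% and 5.48% of all genes. The fold change was below 0 in 32 of the 35 (median -0.14, against 0.00 over all genes). ODC1, the first enzyme of polyamine synthesis, stood at 228, 219 and 226 CPM under NTC and 152, 161 and 139.8 CPM under siRNA1 (log2 fold change -0.57, SE 0.07, edgeR adjusted p = 1.77e-06). PPAN fell by 0.58, WDR43 by 0.33 and POLR1A by 0.32 on the log2 scale. ODC1 passed without the block. The count moved with the libraries: 2 without the replicate 1 libraries, 3 without NTC replicate 1 or siRNA1 replicate 1, 4 without NTC replicate 3, 5 without siRNA1 replicate 3 and 17 without NTC replicate 2.

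Cell cycle genes moved by small amounts. Of 49 genes of G1/S and DNA replication, 5 were lower and 1 higher, against 5.93% and 5.48% of all genes. The fold change was below 0 in 38 of them (median -0.09, against 0.00 over all genes). UHRF1, which guides maintenance methylation, fell by 0.49 on the log2 scale and passed without the block, and its partner DNMT1, from the list of T-ALL tumour suppressors and chromatin factors (8 of 42 lower, 5 higher), stood at 786, 681 and 786 CPM under NTC and 535, 449.6 and 537 CPM under siRNA1. Of 52 genes of G2/M and the spindle, 9 were higher and 2 lower, against 5.48% and 5.93% of all genes. The fold change was above 0 in 46 of them (median 0.11, against 0.00 over all genes). NCAPD2, a condensin subunit, fell by 0.52, while UBE2C (0.30) and AURKB (0.29) rose. Over all genes 0.469% were higher without the block, 553 genes without siRNA1 replicate 1 and 558 without the 3 replicate 1 libraries. In none of these fits was a G2/M gene called higher. Without NTC replicate 1 or NTC replicate 2, 1 was higher, and without siRNA1 replicate 2, 4. With library size alone as the scaling, 14 G2/M genes were higher. The 5 lower G1/S genes became 1 without NTC replicate 3 or siRNA1 replicate 1, 2 without NTC replicate 1 or siRNA1 replicate 2, 3 without siRNA1 replicate 3 and 9 without siRNA2 replicate 3. In the list that holds DNMT1, the 8 lower genes became 3 without NTC replicate 1 or siRNA1 replicate 1, 4 without siRNA1 replicate 2 and 5 without siRNA1 replicate 3. Its 5 higher genes became 3 without NTC replicate 1 and 2 without NTC replicate 3, siRNA1 replicate 1 or siRNA1 replicate 2.

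ATF4 and unfolded protein response genes had 7 of 31 members higher and 2 lower (median 0.08). The cystine transporter gene SLC7A11 rose by 0.64, DDIT4, an inhibitor of mTORC1, by 0.75 and the stress factor DDIT3 by 0.39 on the log2 scale. Without the block, where 0.469% of all genes were higher, no member was called higher, and 4 were without the replicate 1 libraries. The higher members were 3 without siRNA1 replicate 1 and 4 without NTC replicate 2, siRNA1 replicate 2 or siRNA1 replicate 3, and with RLE factors they were also 4. The secretory pathway gene MZB1 fell from 189.9, 188 and 218 CPM to 110.1, 111 and 116 CPM.

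The remaining lists are given in brief, beside 5.48% higher and 5.93% lower over all genes. Glycolysis and hypoxia genes had 4 of 31 higher and 2 lower, MHC genes 2 of 21 each way, and BCL2 family and p53 target genes 3 of 33 each way. Without siRNA1 replicate 3 the higher glycolysis genes were 2. Without NTC replicate 3 or siRNA1 replicate 2 no MHC gene was lower, and without NTC replicate 1 or siRNA1 replicate 1 the higher BCL2 and p53 genes were 1. Among serine, folate and choline genes, CHDH rose and SARDH, the sarcosine dehydrogenase, fell by 0.46, with 23 of 25 not past the test, and 4 were lower without NTC replicate 2 or siRNA2 replicate 3. Sterol and fatty acid synthesis had 2 of 31 lower, cytosolic ribosomal proteins 2 of 78, telomerase and shelterin 2 of 17, GIMAP GTPases 1 of 7 and the mitochondrially encoded genes 0 of 13 in either direction. Leaving out 1 library gave 0 to 5 lower sterol genes, 0 to 2 ribosomal protein genes, 1 to 3 telomerase genes and 0 to 2 GIMAP genes. Of 15 genes of the RNA interference machinery 3 were lower, with 1 to 5 when 1 library was left out (1 without siRNA1 replicate 2), and AGO4, an Argonaute protein, fell from 56, 57.7 and 54.8 CPM to 40.6, 38 and 41.1 CPM (log2 fold change -0.49, SE 0.06, edgeR adjusted p = 1.04e-05). Markers of B cells had 3 of 10 lower, IGLL1, MZB1 and POU2AF1 (-0.69), and 1 higher, IGHM (0.68), which did not pass without NTC replicate 2 or siRNA1 replicate 3. Of the myeloid markers 1 of 6 was lower, ITGAM, which did not pass without NTC replicate 3, of the erythroid ones 1 of 4, TFRC, which did not pass without siRNA1 replicate 3, and of the epithelial and fibroblast ones 0 of 2.

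**Figure D4:**
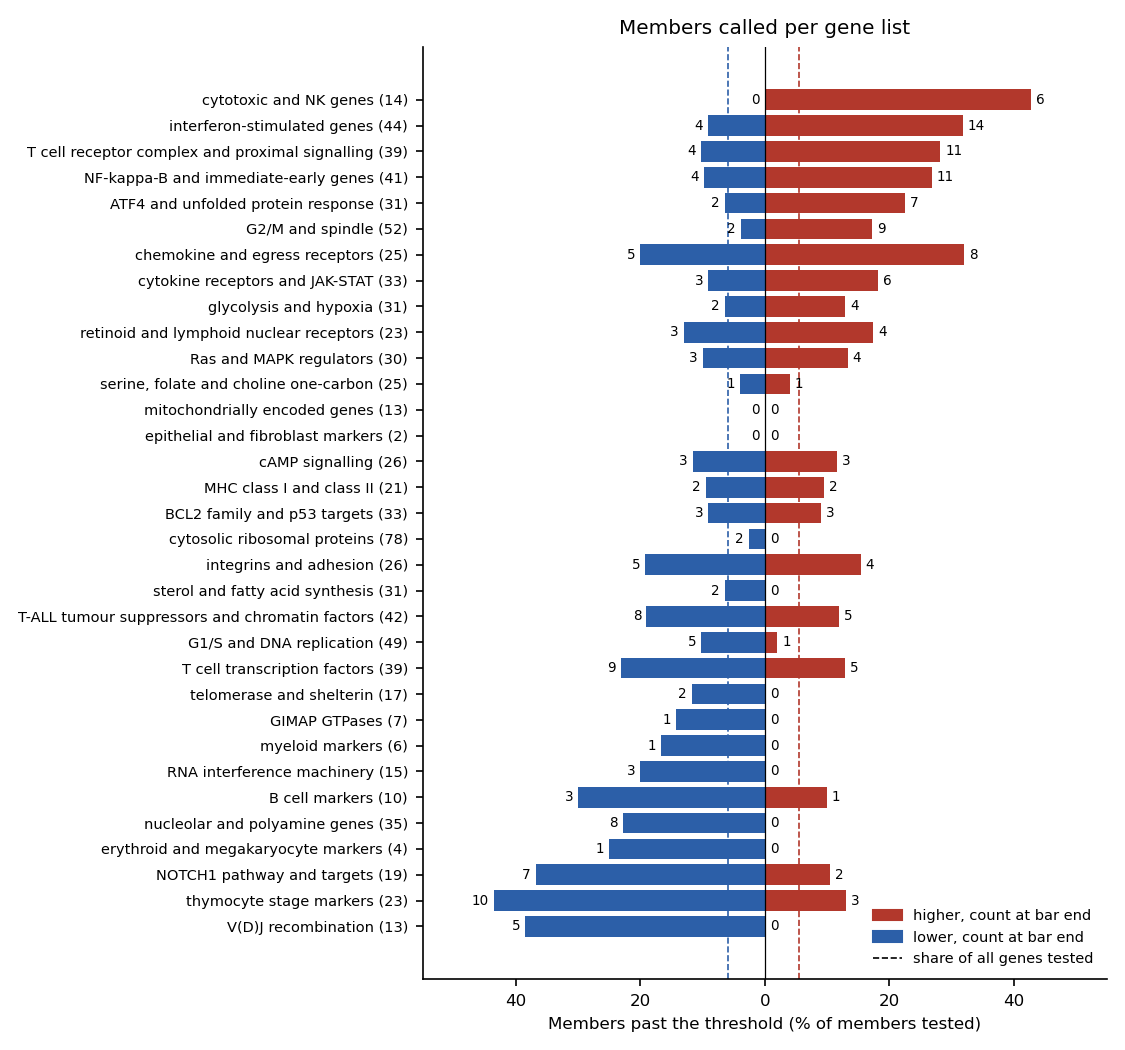
Members past the threshold as a share of the members tested (horizontal axis, %), lower to the left and higher to the right, for 33 gene lists with the number tested in brackets and the counts at the bar ends. Dashed lines give the share over all genes tested (5.93% lower, 5.48% higher), and lists are ordered by the balance of both sides, from V(D)J recombination with 5 of 13 lower to cytotoxic and NK genes with 6 of 14 higher.

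Among lncRNA genes, AC011893.1 stood out by its level, at 103, 126 and 99.1 CPM under NTC and 42.3, 52.8 and 36 CPM under siRNA1 (log2 fold change -1.33, SE 0.07, edgeR adjusted p = 5.99e-12). AC022167.3 (-1.30), LINC01120 (-1.25) and AP000345.2 (-1.15) fell as well. LINC01973 (1.35), LINC002481 (1.28), HDAC2-AS2 (1.22) and EPHA1-AS1 (1.19) rose, of which LINC01973 and HDAC2-AS2 did not pass without the block (edgeR adjusted p = 0.0636 and 0.0524). AC011893.1, HDAC2-AS2 and EPHA1-AS1 are annotated as antisense genes, and AC022167.3 also overlaps a gene on the other strand, so reads from the shared stretches cannot be told apart by strand. Reads marked ambiguous between genes were in none of these counts. Of the partners, LCT (-0.73), which overlaps AC011893.1, and USP7 (-0.46), which overlaps AC022167.3, fell, and EPHA1 (1.10) rose with EPHA1-AS1 (partners chosen by position). The partners of HDAC2-AS2 did not pass: HDAC2 at -0.07 and HS3ST5 at 0.71 (edgeR adjusted p = 0.532 and 0.0562).

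Some named genes were also among the 28 (0.151% of those tested) that passed between the siRNA2 and NTC labels, a comparison that shares the NTC libraries (edgeR), and their values are set side by side. ADGRG1 was 0.46 lower under siRNA2 than under NTC on the log2 scale (66.4, 72 and 70.1 CPM), and LBH was 0.34 lower, and both were lower again under siRNA1. PDE4D was 0.84 higher under siRNA2 than under NTC and 0.79 higher under siRNA1. The glucose transporter gene SLC2A3 was 0.75 higher under siRNA2 and 0.82 under siRNA1. UNG, the uracil glycosylase, was 0.79 higher under siRNA2 and 0.54 under siRNA1, and under siRNA1 it did not pass without NTC replicate 2 or with DESeq2. For PDE4D, SLC2A3 and UNG the difference between the siRNA labels was -0.05 (SE 0.11), 0.07 (SE 0.12) and -0.25 (SE 0.12) and did not pass.

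An earlier search of the same libraries had brought out a 7-base word, GCAGTAC, in the 3′ UTRs of genes lower under the siRNA1 label, so its share here is a description with no test. A short RNA with the complement of such a word at bases 2 to 8, its seed, can pair with an mRNA there, which is how miRNAs find their targets. The 6 lower genes with the largest drop among those holding the word are shown, each with 7 bases on either side in the sense direction and the word in capitals, from GENCODE 29 transcripts on GRCh38.
TC2N, chr14:91780475-91780495, minus strand: tttaaaaGCAGTACtcctagg
RAG1, chr11:36577554-36577574, plus strand: tccaaacGCAGTACagcagaa
LBH, chr2:30258654-30258674, plus strand: cccagctGCAGTACtcacgcc
LBH, chr2:30259051-30259071, plus strand: gccgagaGCAGTACcgtgtgg
RUNX2, chr6:45550686-45550706, plus strand: ttttaatGCAGTACtttgaaa
ALCAM, chr3:105575548-105575568, plus strand: ttatcaaGCAGTACatgaaag
THG1L, chr5:157739724-157739744, plus strand: tttaatcGCAGTACtattttt

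All of these lie in 3′ UTRs. LBH, a transcription cofactor gene with 2 copies of the word, stood at 52.4, 48.4 and 60.9 CPM under NTC and 25.7, 21.2 and 29.5 CPM under siRNA1 (log2 fold change -1.09, SE 0.07, edgeR adjusted p = 4.06e-10). The adhesion receptor ALCAM fell from 5.14, 5.33 and 6.8 CPM to 2.08, 2.91 and 3.72 CPM, and THG1L, a tRNA-modifying enzyme, from 13.1, 16.1 and 14.9 CPM to 6.78, 8.47 and 7.24 CPM. In LBH, ALCAM and THG1L the labels did not overlap. DAB2IP, the gene with the largest drop of those named, held no copy in its 3′ UTR and 1 in its coding sequence. DNTT, IL7R and NOTCH1 held none in either.

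Of 12286 genes with an annotated 3′ UTR, 942 were lower (7.67%) and 786 higher (6.4%) under the siRNA1 label. The word was in the 3′ UTR of 177 of the 942 lower genes (18.8%, exact 95% interval 16.3 to 21.4), 20 of the 786 higher genes (2.54%, 1.56 to 3.9) and 436 of 10558 genes that did not pass (4.13%, 3.76 to 4.53). Over all 12286 genes the share was 633 genes or 5.15%. The intervals here and below treat genes as independent. Because the word came from these same libraries, they are no test of it. In coding sequence the word was in 20.0% of the lower, 7.38% of the higher and 10.8% of the remaining genes. The same letters read on the other strand, GTACTGC, were in the 3′ UTR of 7.96% of the lower and 4.96% of the higher genes. Length moved with the word: 3′ UTRs that held it had a median of 3259 bases and those without it 1214, and lower genes had a median of 1621.5 bases against 1291.5 over all genes, and the part of length in these shares was not tested.

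By number of copies, lower genes were 6.56% of the 11653 genes with no copy in the 3′ UTR, 27.1% of 594 genes with 1 copy and 16 of 39 genes with 2 or more. The median log2 fold change was -0.01, -0.12 and -0.13 in this order, so most genes with the word differed little between labels. Between the siRNA2 and NTC labels the same medians were -0.01, 0.02 and 0.05. Where a copy was followed by A, 35.0% of 223 genes were lower, and 24.1% of 410 genes where none was. Among lower genes called without the block the word was in 37.3% of 3′ UTRs, and among those more than 2-fold lower in 4 of 37 (10.8%, exact 95% interval 3.03 to 25.4). None of 2545 mature human miRNAs in the RefSeq table had the seed GUACUGC. Neither of the 2 annotated TLX1 transcripts searched held the word in its coding sequence or 3′ UTR, and the rest of the transcript was not searched.

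**Figure D5:**
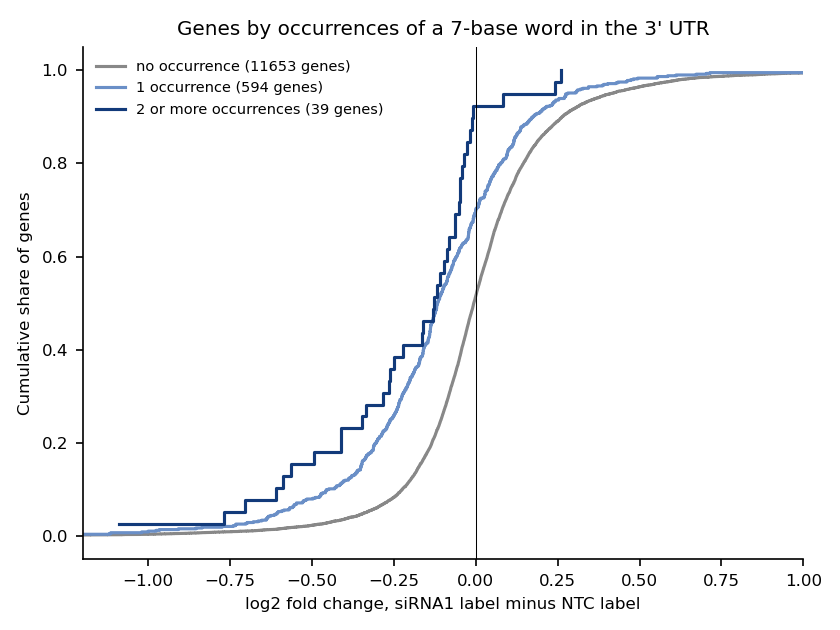
Cumulative share of genes (vertical axis) by log2 fold change between the siRNA1 and NTC labels (horizontal axis), for 11653 genes with no copy of the word in the 3′ UTR, 594 with 1 copy and 39 with 2 or more. The curves for 1 copy and for 2 or more lie to the left of the curve for no copy over most of the range, with medians of -0.12, -0.13 and -0.01.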

How the data were processed

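The authors deposited counts, 1 table per library, as whole numbers of reads per gene that were not normalized. Above the genes stand 4 summary lines, which were left out: unmapped, multimapping and ambiguous reads and reads outside genes. Together they were 22.4% to 24.5% of a library, and reads outside genes alone were 8.33% to 10.3%. The count without regard to strand was used, since per the labels' protocols the kit is unstranded. GRCh38 is the build named in the submitters' processing notes, and the sources used here name no aligner or annotation. Of 58096 identifiers 57488 matched GENCODE release 29, and the 608 others held 0.0317% of counts.

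The fit used edgeR 4.0.16 (R 4.3.3) after filterByExpr by group (at least 10 counts, 15 in total), with TMM factors from 0.975 to 1.04 and the quasi-likelihood test over all 9 libraries with group and replicate number as terms (4 residual degrees of freedom, 6 without the block), and genes were called at a Benjamini-Hochberg adjusted p below 0.05. The SE is the fold change over the root of F. Self-tests ran on simulated data. No 2 replicates were a repeat (chi-square per degree of freedom 32 or more). The labels' replicate numbers paired libraries: deviations from group means correlated at 0.623, 0.413 and 0.463 for same-numbered siRNA1 and NTC libraries (18554 genes), and between -0.445 and 0.0693 for others. What a number marks is not given in the labels.

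Named genes were the TLX genes; 12 protein-coding genes each way by fold change (mean of at least 1 CPM, same direction in 3 pairs, also past the threshold without the block); the 5 most abundant each way over 1.5-fold; up to 4 per list by adjusted p; 4 lncRNAs each way (at least 0.5 CPM); and 6 lower genes with the word. The 34 lists (993 gene names), their members and the rule were chosen with earlier results of these data known. Genes named outside the rule, such as list members below the first 4, were chosen after their values were seen. Words were searched in the longest 3′ UTR of each gene. Pair differences are log2 CPM with a prior count of 2. Alternatives were RLE factors, library size alone, no filter beyond 1 count, 1 CPM in 3 libraries, DESeq2 1.42.0, limma-voom (limma 3.58.1), no block, only the 6 libraries compared, and leaving out libraries.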

Additional observations from a re-analysis of the deposited data

How the results depend on the processing

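The count of genes called between the siRNA1 and NTC labels depended most on the replicate block. It was 2117 with the block and 238 without the replicate block (87 higher, 151 lower), and 182 (61 higher, 121 lower) in the 6 libraries alone without it. For siRNA1 against siRNA2, 1958 genes became 201 without the block. Without the 3 replicate 1 libraries the counts were 1139 (558 higher, 581 lower), and 1015 against siRNA2. Leaving out 1 library at a time gave 1163 to 2979 genes against NTC, 553 to 1344 higher and 610 to 1635 lower, and 980 to 2387 against siRNA2. The 6 libraries alone with the block gave 2729. RLE factors, library size alone, both other filters, DESeq2 and limma-voom gave between 2024 and 2172. TLX1 kept its direction and its call in all 19 alternatives. Of the 131 named genes called, 103 passed in all 9 fits that left out 1 library, 112 without the replicate 1 libraries, 62 without the block and 55 in all 19 alternatives. The share of lower genes with the word was 37.3% without the block and 10.8% over 2-fold. TLX3, which did not pass, turned from 0.14 to -0.004722 without NTC replicate 1. With 3 libraries per label and 4 residual degrees of freedom, the block takes degrees of freedom from the test. Depth limits the low genes most. Causes of these shifts were not tested.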
